A study of Mus musculus with 8 samples.

Results

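Broad unmethylated canyons, autosomal stretches of 4 kb or more in which every measured window was nearly unmethylated, were mapped in mouse hematopoietic stem cells. The genome was divided into 1 kb windows, and a window counted as measured when it held at least 5 CpGs with 10 or more reads in at least 3 mice of each genotype. A canyon was a run of at least 4 measured windows, each with a mean methylation level of 10% or less over the mice, with at most 1 window without data between neighbours. Of 58651 measured windows, 24275 (41.4%) lay at or below 10%, and they fell into 15063 runs. Only 460 runs (3.05%) met the length rule, and these canyons held 2216 windows and 64621 CpGs. The name holds in its strict sense for 263 of them, which spanned more than 4 kb, while the other 197 spanned exactly 4 kb.

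The cells were sorted from the bone marrow of individual C57BL/6 mice as lineage-negative cells positive for c-Kit, Sca-1 and CD150 and negative for Flk2 and CD48, with no culture. The 4 knockouts carried loxP-flanked Atg12 and the interferon-inducible Mx1-Cre, which is active in many interferon-responsive cells and not in stem cells alone. The 4 controls are given as Atg12 flox/flox mice in the design text and as WT in the genotype label. Mice of both groups received poly(I:C), the interferon inducer that switches on Mx1-Cre, at 4 weeks of age, and cells were taken 2 to 3 months later. Atg12 is a ubiquitin-like protein needed to form autophagosomes, and the comparison asks what its loss does to the stem cell methylome. Loss of Atg12 itself was not checked here, and the sex of the mice is not in the labels used here. The assay was ERRBS, an enhanced form of reduced representation bisulfite sequencing, which reads fragments cut at CCGG and so samples CpG-rich DNA most densely. Enzymatic sampling also means that long stretches without cut sites carry no data.

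Most CpGs of mammalian genomes are methylated, and CpG islands at gene starts are the main exception. DNA methylation canyons are unmethylated domains much wider than a single island, and they are known from blood stem cells and other tissues to lie over genes of transcription factors and other developmental regulators. Many of these genes are silent and marked by Polycomb proteins, while others are active in the tissue. In blood stem cells the methyltransferase Dnmt3a is known to maintain methylation at canyon edges.

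Promoters of 6 genes inside canyons are shown because the results below turn on their canyons and because they span the range from almost no methylation to the canyon limit. They are from Gata2 and Myb, regulators of blood stem and progenitor cells, and from the homeobox genes Uncx, Barx1, Bsx and Phox2a. Each runs from 250 bases before to 50 bases after the gene's start in RefSeq (GRCm38.p6), 5′ to 3′ on the gene's strand. Capitals mark the CpGs that entered the analysis, so lower-case cg pairs are CpGs that the sequencing did not cover well enough.
Gata2: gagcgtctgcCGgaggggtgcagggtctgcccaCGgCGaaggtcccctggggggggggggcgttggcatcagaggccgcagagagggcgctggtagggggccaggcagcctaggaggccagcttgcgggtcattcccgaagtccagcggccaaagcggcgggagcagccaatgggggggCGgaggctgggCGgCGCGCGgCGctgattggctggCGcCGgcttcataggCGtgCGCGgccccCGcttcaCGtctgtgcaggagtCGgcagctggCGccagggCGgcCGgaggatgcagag
Myb: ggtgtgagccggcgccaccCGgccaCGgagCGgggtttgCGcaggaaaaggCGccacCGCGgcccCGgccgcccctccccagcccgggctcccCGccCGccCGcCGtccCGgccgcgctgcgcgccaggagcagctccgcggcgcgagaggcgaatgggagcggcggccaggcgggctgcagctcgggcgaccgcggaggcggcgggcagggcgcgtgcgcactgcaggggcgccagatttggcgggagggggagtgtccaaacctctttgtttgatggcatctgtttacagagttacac
Uncx: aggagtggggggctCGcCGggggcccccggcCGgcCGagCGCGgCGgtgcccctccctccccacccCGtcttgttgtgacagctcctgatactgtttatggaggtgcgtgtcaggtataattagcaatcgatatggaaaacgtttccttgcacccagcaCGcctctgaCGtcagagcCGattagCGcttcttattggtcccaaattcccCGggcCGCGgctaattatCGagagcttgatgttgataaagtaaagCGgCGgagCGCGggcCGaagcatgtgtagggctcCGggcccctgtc
Barx1: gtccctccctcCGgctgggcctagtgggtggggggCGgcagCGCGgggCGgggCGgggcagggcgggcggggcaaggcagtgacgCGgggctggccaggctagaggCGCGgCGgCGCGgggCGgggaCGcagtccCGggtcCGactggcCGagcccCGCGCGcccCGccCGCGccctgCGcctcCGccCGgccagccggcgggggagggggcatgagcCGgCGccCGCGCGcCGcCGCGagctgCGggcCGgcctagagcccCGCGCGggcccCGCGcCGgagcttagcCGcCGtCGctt
Bsx: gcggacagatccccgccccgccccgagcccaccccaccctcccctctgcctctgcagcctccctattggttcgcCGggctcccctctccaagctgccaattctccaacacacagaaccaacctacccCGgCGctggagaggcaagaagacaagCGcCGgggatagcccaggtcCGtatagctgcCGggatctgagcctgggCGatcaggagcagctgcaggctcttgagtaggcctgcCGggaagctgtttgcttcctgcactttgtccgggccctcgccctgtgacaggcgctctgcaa
Phox2a: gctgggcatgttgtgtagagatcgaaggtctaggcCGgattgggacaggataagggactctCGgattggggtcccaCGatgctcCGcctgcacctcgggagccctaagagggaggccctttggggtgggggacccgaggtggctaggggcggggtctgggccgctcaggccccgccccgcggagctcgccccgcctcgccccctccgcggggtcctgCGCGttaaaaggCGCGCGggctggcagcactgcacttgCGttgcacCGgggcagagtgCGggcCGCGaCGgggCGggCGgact

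The Gata2 promoter (chr6:88198414-88198713, plus strand) held 29 CpGs, of which 20 had data, and its mean level over the 8 mice was 0.0965%. In the Myb promoter (chr10:21160935-21161234, minus strand) 13 of 40 CpGs had data, all within its upstream part, and the mean level was 0.304%. Knockouts 28 and 45 stood at 1.06 and 0.884% there, while the other 6 mice ranged from 0% to 0.277%. The lowest of them, control 1, had no methylated read among 3033 reads, which allows a level of up to 0.0989% from counting error alone (3 counts). The Uncx promoter (chr5:139543648-139543947, plus strand) had data for 22 of 26 CpGs and a mean level of 2.16%. For Barx1 (chr13:48662786-48663085, plus strand) 45 of 50 CpGs had data, with a mean level of 1.18%. The Bsx promoter (chr9:40873877-40874176, plus strand) had data for 9 of 17 CpGs. Its level was 3.49, 2.01, 0 and 2.35% in knockouts 25, 28, 45 and 46, and 0.427, 0.637, 0.149 and 0.125% in controls 1, 34, 36 and 37. Of the knockouts, 3 lay above every control. The 0 in knockout 45 rests on 892 reads, which allow up to 0.336% from counting error, so it cannot be placed below every control. The Phox2a promoter (chr7:101818063-101818362, plus strand) was the most methylated of the 6, at 10.8% over 17 of 30 CpGs, with a range of 6.29 to 15.4% over the mice. It lies in a canyon window that averaged 9.53%, just under the limit.

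Across all canyons the reads per CpG averaged 275 (knockout 28) to 428 (knockout 25) in a mouse. Counting error on canyon levels was not compared with the spread between mice. CpGs within 1 kb of the ends of genes on the stem cell marker list had low levels, with a median of 0.164% and a highest value of 0.988% over the 8 of 11 genes that were measured. Of other lineages' markers, the 3 measured neutrophil genes lay at 65.4 to 92.8% and the 3 measured erythroid genes at 5.44 to 54.4%. The 3 measured T cell genes spanned 0.225 to 93.4% and the 5 B cell genes 0.395 to 84.9%, so low levels were not confined to stem cell genes. Cytosines on chromosome Y made up 7.90 to 9.01 of every 10000 listed in the knockouts and 1.16 to 1.83 in the controls. Those on chromosome X made up 1.83 to 1.93% in the knockouts and 2.42 to 2.54% in the controls. The sex of the mice may thus differ between the groups, and genotype cannot be told apart from it in any comparison below. Control 34 stood apart in coverage: its edge windows had 0.531 times the reads per CpG of its canyon windows, the lowest ratio, against 0.571 in knockout 25 and 0.643 to 0.754 in the other mice.

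Canyons were mostly short. Runs became rarer with every added window: 8092 had 1 window, 5566 had 2, 945 had 3, 266 had 4, 106 had 5 and 44 had 6. Another 44 had 7 or more. The median canyon spanned 5 kb, the longest 18 kb, and 16 spanned 10 kb or more. A window without data lay inside 173 canyons, 206 such windows in all, so 287 canyons had data in every window.

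**Figure D1:**
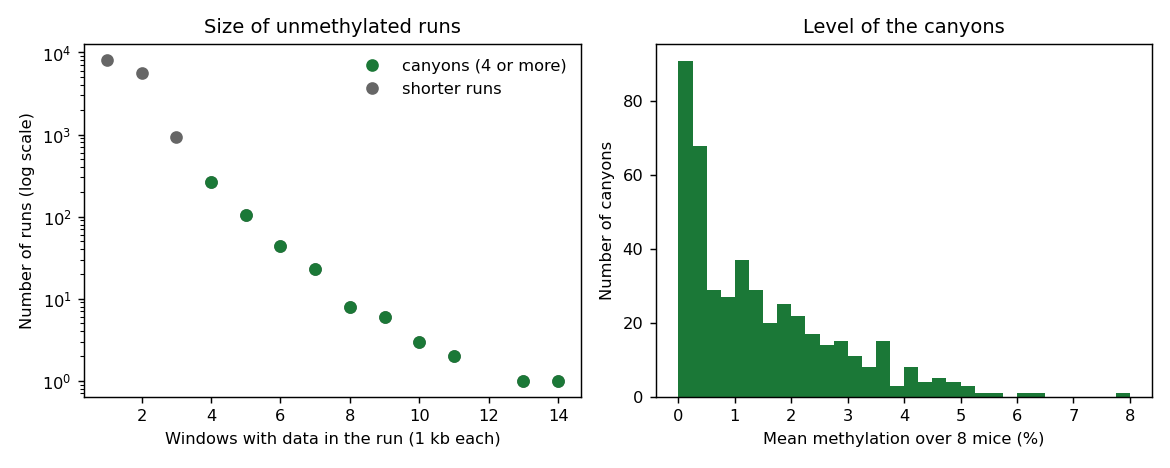
Left, number of runs of unmethylated windows (log scale) by the number of 1 kb windows with data; runs of 4 or more are canyons. Right, number of canyons by mean methylation over 8 mice (%). The count falls from 8092 runs of 1 window to 1 run of 14, and canyon levels crowd below 1%, where 215 of 460 lie.

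The canyons were chosen by these same methylation levels, so the levels are given as a description, with no test. The level of a canyon, its methylated reads over all reads averaged over the mice, had a median of 1.09% and ranged from 0.0987 to 7.90%. Of the 460, 215 were below 1%, 237 from 1 to 5% and 8 at 5% or more. Long runs were not the least methylated ones. The median canyon window was at 0.968%, whereas the median window of shorter runs was at 0.284%, although both kinds held nearly the same number of CpGs (medians of 22 and 23). Windows at 5% or more made up 11.0% of canyon windows and 6.46% of windows in shorter runs.

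By position, the next-to-outermost windows were the lowest. The outermost window at each end averaged 2.09% and the next window inward 1.51%, while the position after that averaged 2.30% and deeper windows 2.32%. Only canyons of 5 or more windows reach that far in, so these positions come from different sets of canyons, and in the 266 canyons of 4 windows the next-to-outermost windows are the middle ones. Single CpGs were overwhelmingly unmethylated: 71.1% of the 64621 were below 1%, and 76 (0.118%) were at 50% or more, against 0.266% in shorter runs. These 76 were spread over 48 canyons. The canyon over Iqce and Brat1 (chr5:140701001-140706000) held 5 of them and that of Irx3, an Iroquois homeobox gene (chr8:91797001-91807000), held 4. The CpGs of bridged windows, which the rule did not use, were less uniform. The 220 of them averaged 14.3% with a median of 4.26%, and 66.8% were at 10% or less, so the bridged windows were mostly but not always as unmethylated as the windows beside them. Of the 89 bridged windows with any such CpG, 26 had a mean above 10% and 6 a mean above 50%.

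Canyons held the starts of many genes of embryonic development. RefSeq promoters outside chromosome 18, for which the table used here has no sequences, placed the starts of 9854 protein-coding genes in measured windows, and 307 of them (3.12%) lay in a canyon. Being unmethylated was the rule for measured starts, since 94.2% lay in a run of some length, but lying in a canyon was not. Of homeobox and paired genes outside the Hox clusters, 52 of 86 measured starts (60.5%) were in a canyon. Members with the most windows included Uncx, Dlx2, Barx1 and Lhx2, which pattern the somites, forebrain, stomach and limb or brain. The list of forkhead, Sox, T-box, Gata, Zic and bHLH factors also held factors of other families, such as Prdm12, Nr4a3, Sall1, Egr2 and Klf4. Of all its measured starts, 27 of 73 (37%) were in a canyon, led by Gata2, Prdm12, Nr4a3 and Foxa1. Signalling genes of the Wnt, Fgf, Bmp, Hedgehog and Notch pathways had 10 of 68 (14.7%), among them the ligand Fgf9, the Wnt receptor Fzd10 and the Hedgehog receptor Ptch1. Hox genes had 3 of 18 (16.7%), and another 13 of the 18 lay in shorter runs. Stem cell regulators had 9 of 28 (32.1%).

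Starts of ribosomal protein genes were nearly all unmethylated without lying in canyons. Of 40 measured ones, 0 were in a canyon and 39 lay in shorter runs. Among 42 measured epigenetic regulators, 2 starts were in canyons (Jarid2, a Polycomb cofactor, and Ring1, a Polycomb ubiquitin ligase) and the other 40 in shorter runs. Of 30 autophagy genes, 28 lay in shorter runs and only those of Foxo1 and Foxo3, transcription factors that control autophagy genes, were in canyons, at 0.262 and 0.326%. Lineage effector genes, which encode products of mature blood cells, had only 4 measured starts, none of them in a canyon.

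**Figure D2:**
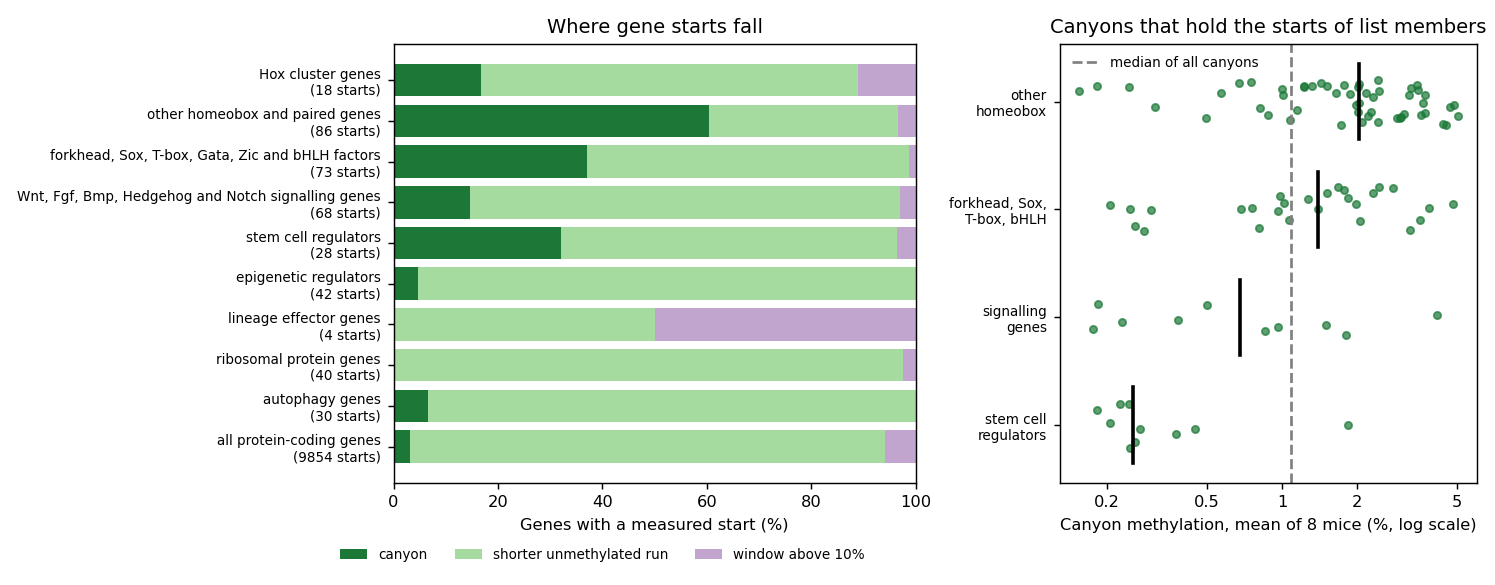
Left, share of each list's measured gene starts (%) in a canyon, in a shorter unmethylated run or in a window above 10%. Right, level of the canyons (%, log scale) that hold starts of list members, 1 point per canyon, with the list's median as a bar and the median of all canyons dashed. The homeobox bar reaches 60.5% in canyons against 3.12% for all genes, and 9 of the 10 stem cell regulator canyons lie below 0.5%.

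The lists also differed in how low their canyons were. The 10 canyons with starts of stem cell regulators had a median level of 0.254%, and 9 were below 0.5%. The 55 canyons of homeobox genes had a median of 2.04% and only 5 were below 0.5%. For the whole list of forkhead to bHLH and other factors the median was 1.39% over 27 canyons. It was 0.679% over 10 for signalling genes and 1.09% for all canyons, with 159 of 460 below 0.5%. Some genes belong to both kinds of list, such as Gata2, Hoxa9 and Meis1. The 4 canyons of stem cell regulators in no developmental list lay between 0.183 and 0.451%. These levels come from the rule's own measure and carry no test.

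Of the 447 canyons outside chromosome 18, 285 (63.8%) held a protein-coding gene start, against 49.1% of runs of 1 window, 72.2% of runs of 2 and 71.3% of runs of 3. More than 1 gene started in 29 canyons, 38 held only noncoding starts and 124 held no start. Among all 460 canyons, 430 overlapped the span of a protein-coding gene and 30 lay between genes. The gene table gives no exons, so exonic and intronic parts were not told apart. A gene of a developmental list started in 95 (21.3%) of the 447, and in 19 of the 42 that had 7 or more windows. As measured, canyons extended further into the gene than upstream of it. Of all 920 canyon ends, however, 800 ran into windows without enough CpGs. The distances below therefore depend on where data ended. In the 256 canyons with a single start the start lay a median of 1.92 kb from the upstream end and 3.01 kb from the downstream end, and it was nearer the upstream end in 175.

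By median, canyon starts resembled other unmethylated starts in base composition. The 409 canyon promoters had a median GC content of 64% and 23 CpGs in 300 bases, and promoters in shorter runs had 63.7% and 23. The enzyme's site CCGG, a palindrome that reads alike on both strands, was found in 89.0% of canyon promoters, 91.2% of promoters in shorter runs and 63.5% of all 20063 promoters of this length.

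The 10 canyons with the most measured windows, with ties at 9 windows settled by the number of CpGs, lay mostly over transcription factor genes. The canyon of Uncx, a homeobox gene of the somites (chr5:139540001-139558000), spanned 18 kb with 14 windows and 382 CpGs, at 3.51% over the mice and 1.57 to 7.20% over its windows. That of Tbx2, a T-box repressor (chr11:85829001-85845000), spanned 16 kb with 13 windows at 2.41%. Dmrta2, a regulator of cortical progenitors (chr4:109974001-109986000), and Dlx2, a homeobox gene of forebrain interneurons (chr2:71535001-71547000), each had 11 windows over 12 kb, at 2.54 and 2.96%. Lhx5 (chr5:120431001-120442000), Barx1 (chr13:48658001-48670000) and the canyon shared by Smg6 and the repressor gene Hic1 (chr11:75164001-75174000) had 10, 9 and 9 windows at 3.13, 2.00 and 3.33%.

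Among these 10, 3 canyons were much lower. Bahcc1 (chr11:120230001-120241000) and Tnrc18 (chr5:142814001-142824000), related genes of proteins with a BAH domain, each had 10 windows, at 0.346 and 0.440%. Hoxa9 and Hoxa10, homeobox genes active in blood stem cells, shared a canyon of 9 windows (chr6:52224001-52235000) at 0.224%, in which no window averaged more than 0.511%. That canyon reached 0.211, 0.310, 0.300 and 0.282% in knockouts 25, 28, 45 and 46, and 0.144, 0.156, 0.204 and 0.188% in controls 1, 34, 36 and 37. The groups did not overlap, but the gap between the lowest knockout and the highest control was small and the adjusted p of the quasi-binomial model was 0.892.

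**Figure D3:**
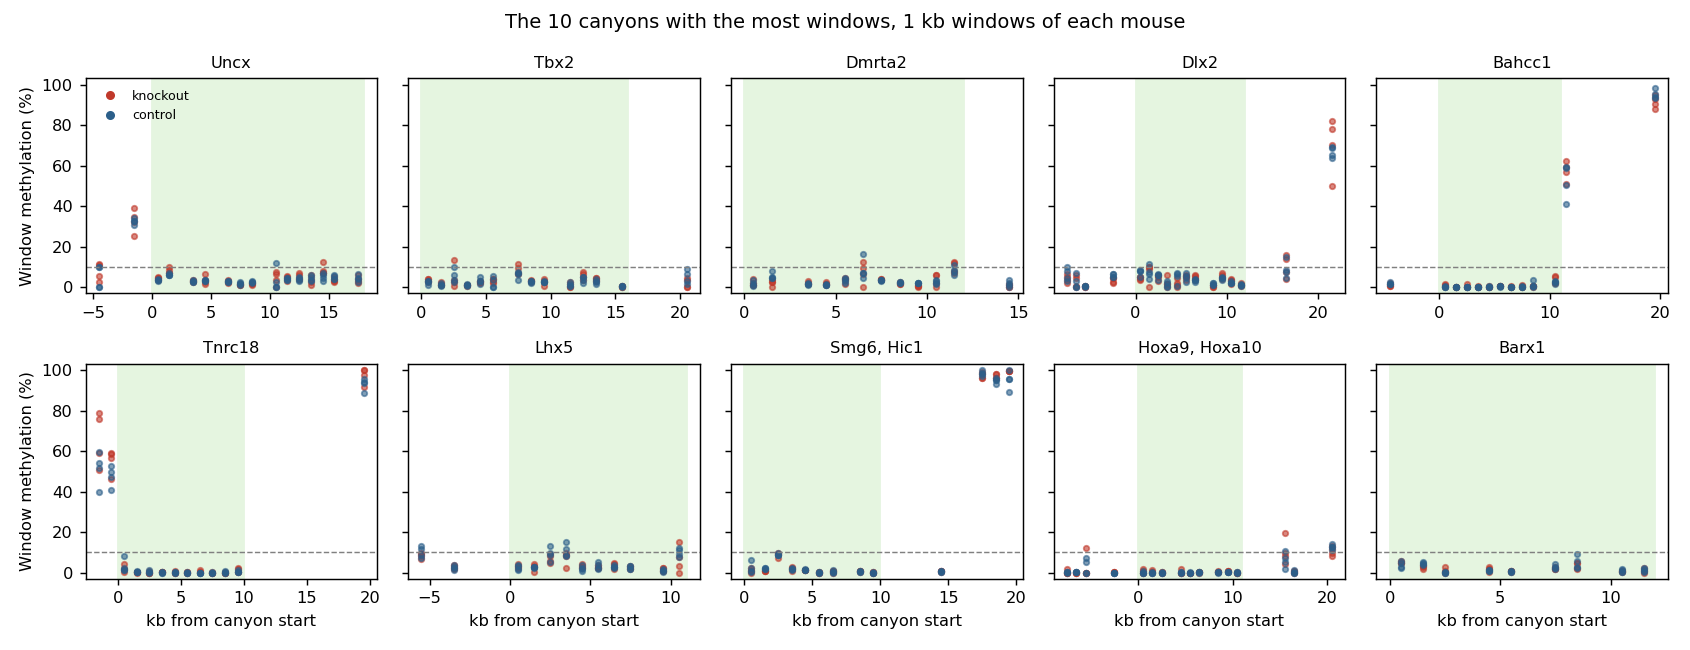
Methylation (%) of each measured 1 kb window in each mouse against kb from the canyon start, for the 10 canyons with the most windows; green marks the canyon and the dashed line the 10% limit. Windows inside Uncx average 1.57 to 7.20%, those inside the Hoxa9 and Hoxa10 canyon stay at or below 0.511%, and measured windows just outside several canyons rise steeply.

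Canyons over regulators of blood stem cells were nearly free of methylation. No rate of bisulfite conversion was estimated here, so differences among levels this low could not be set against errors of conversion. Mecom, a zinc-finger factor needed by long-term stem cells (chr3:30507001-30511000), was at 0.183%. Prdm16 (chr4:154634001-154638000) was at 0.206%, Meis1, a Hox cofactor (chr11:19014001-19021000), at 0.245%, Myb (chr10:21158001-21162000) at 0.272% and Gfi1, a repressor that restrains stem cell cycling (chr5:107723001-107727000), at 0.451%. Fli1 was at 0.434%, Id2 at 0.260%, Sox4 at 0.248%, Myc at 0.20%, and the immediate early genes Junb and Ier2 at 0.376 and 0.361%. The level of Ier2 fell to 0.179, 0.119 and 0.210% without knockouts 25, 28 and 46. These are levels of the run of low windows, of any length, that then overlapped its canyon most. Zfp36l2, an RNA-binding regulator of mRNA decay, had 7 windows at 0.147%.

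Gata2 differed from these. Its canyon (chr6:88193001-88204000) spanned 11 kb with 9 windows at 1.84%, and its windows were uneven. The window with the start averaged 0.481% and the next 0.152%, whereas the window after these averaged 8.35% and one upstream of the start 4.22%. The whole canyon lay at 2.07, 1.14, 2.68 and 2.32% in knockouts 25, 28, 45 and 46, and at 1.67, 1.58, 1.27 and 1.98% in controls 1, 34, 36 and 37. The groups overlapped, with knockout 28 the lowest mouse of all.

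Among canyons over epigenetic regulators, Kdm6b, an H3K27 demethylase (chr11:69415001-69420000), was at 0.174%. Setd1b, an H3K4 methyltransferase that shares its canyon with Rhof, was at 0.243% and Cxxc5, a CXXC-domain protein, at 0.303%. Jarid2 was at 0.265%. When the rule was run again without any 1 of the 8 mice, the run of low windows that overlapped it most was at 0.129 to 0.153%. That run could be of any length and may have been shorter than a canyon, and the CpGs used changed as well. The outermost window of the Jarid2 canyon, with 5 CpGs, averaged 9.71%. Ring1 was the exception at 2.60%, in a canyon shared with H2-Ke6 and Slc39a7.

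At the upper end stood Rtkn (chr6:83135001-83139000), at 7.90%. Its level was 6.12, 9.21, 5.33 and 10.1% in knockouts 25, 28, 45 and 46, and 13, 5.38, 5.99 and 8.04% in controls 1, 34, 36 and 37. It thus exceeded the limit in 2 mice, 1 of each genotype, and it had the largest SD over mice of any canyon, 2.73 points. Skor2, Hoxc10, the Wnt receptor gene Fzd2 and Shank1, which encodes a postsynaptic scaffold, followed at 6.31, 6.18, 5.67 and 5.47%. The least methylated canyon lay over Mus81 and Cfl1 (chr19:5488001-5492000) at 0.0987%, and no mouse exceeded 0.161% there. Those of Cramp1l with Ift140, Mbd6 with Ddit3, Josd1 with Gtpbp1, Hivep2 and Lzts2 lay between 0.111 and 0.131%.

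A few other canyons varied strongly between mice. Actg1, which encodes a cytoplasmic actin (chr11:120347001-120351000), was at 1.10, 2.54, 4.09 and 0.833% in knockouts 25, 28, 45 and 46, and at 1.06, 0.695, 0.576 and 0.436% in controls 1, 34, 36 and 37. Only knockouts 28 and 45 were clearly high, in the 2 middle windows, and the groups overlapped. The Phox2a and Inppl1 canyon (chr7:101818001-101823000), whose promoter is printed above, was at 4.51, 4.53, 7.55 and 6.58% against 3.57, 4.46, 4.08 and 3.52%. The groups did not overlap, and the difference of 1.88 points was the widest of all canyons, with an adjusted p of 0.865 in the quasi-binomial model. The level changed with the CpGs and mice used, and it moved by more than 1 SD in 16 of 21 alternatives. When the rule was run again without knockout 25, 28, 45 or 46 or control 1, 34 or 36, it lay between 1.53 and 1.89%. That is below each of the 8 values above, so other CpGs or windows entered the level. The overlapping run of low windows used there could be of any length, and may have been shorter than a canyon. A canyon 6484 bp from Hand2 (chr8:57331001-57335000) and those of Adm and Fzd2 had SDs over mice of 1.27, 1.17 and 1.15 points. In each of them knockout 45 or a control was the highest mouse. The start of Hand2 lay in another canyon (chr8:57320001-57324000). The median canyon had an SD of 0.230 points.

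Most canyon ends were not seen. Of 920 ends, 120 (13%) bordered a measured window above 10%, 82 of them directly and 38 after 1 window without data. The other 800 ran into windows without enough CpGs. Both ends were measured in 13 canyons, 1 end in 94 and none in 353, so the spans above are lower limits for most canyons. The 120 measured ends led to 119 different edge windows, of which 88 overlapped a protein-coding gene.

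Edges ranged from slightly above the limit to full methylation. Their median level was 33.1% and their range 10.03 to 98.9%: 41 lay between 10 and 20%, 28 between 20 and 50%, 21 between 50 and 80% and 29 at 80% or more. Edge windows had a median SD over mice of 5.10 points and a median of 8 CpGs. The SD of 0.230 points for the median canyon is for reads summed over whole canyons near 0%. It is not a like measure of the spread between mice. The steepest rises from the outermost canyon window were at Srcin1 (0.215 to 97.0%), Get3 and Trir (0.216 to 97.0%), Nrm and Ppp1r18 (0.0745 to 96.7%) and Ptprs (0.222 to 96.1%). The smallest rises were at Fezf2 (9.50 to 10.9%), Pcdh8 (6.50 to 10.4%), Foxf1 (7.55 to 11.4%) and Nr4a2 (8.73 to 12.9%), so those ends depend on where the limit stands. The edge nearest to the limit was at Evx2 (10.03%), followed by Otud7a (10.1%) and Onecut3 (10.1%). The canyon windows nearest to it were at Crmp1 (9.997%), Cdk5r2 (9.96%), Rtkn (9.93%) and Onecut1 (9.92%).

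Sparse CpGs beyond the open ends, in windows that the rule did not use, averaged higher levels than CpGs inside. Within 2 kb of an open end, 269 ends had 750 such CpGs, with a median level per end of 13.8%. Of these ends, 117 (43.5%) were still at 10% or less, 84 between 10 and 50% and 68 (25.3%) at 50% or more. By distance, CpGs in the last 500 bp inside open ends averaged 3.00%, and those in successive steps of 500 bp outside averaged 16.9, 31.9, 45.4 and 36.2%. At measured ends, where the rule itself required a rise, the values were 3.33% inside and then 28, 49.6, 31.1 and 39.1%. Beyond 2 kb the averages fell again at both kinds of end, to 20.1% at open ends and 22.9% at measured ends in the first such step. At open ends the rule leaves only sparse windows in the first 2 kb, and measured windows enter beyond it. The CpGs there rose from 140 in the last step before 2 kb to 672 in the next. The fall at open ends thus compares different kinds of windows. So does the rise there, from measured windows that the rule held at 10% or less to sparse ones.

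**Figure D4:**
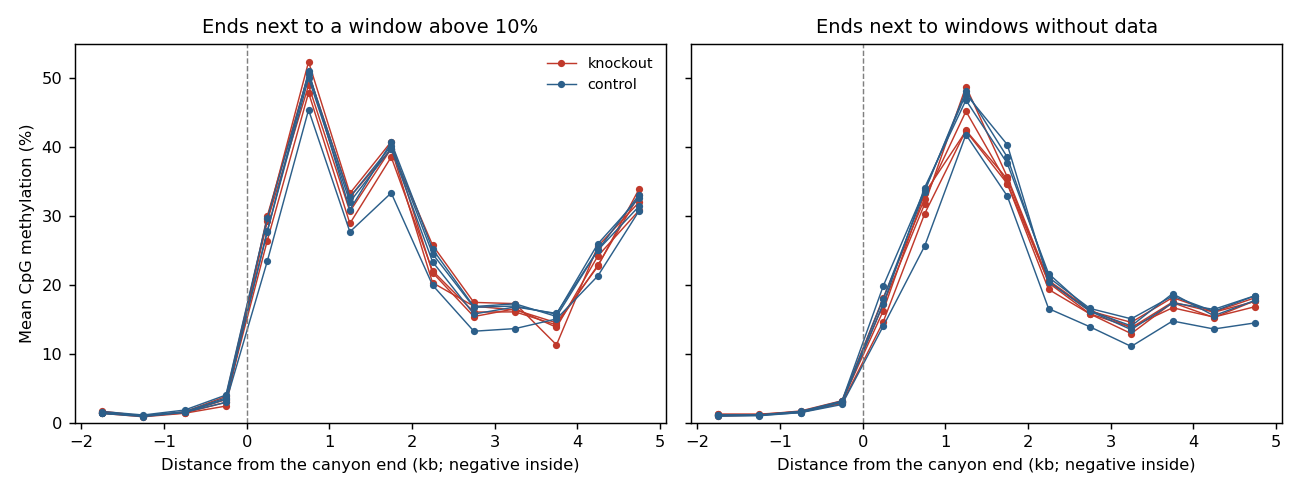
Mean CpG methylation (%) by distance from the canyon end (kb, negative inside) in steps of 500 bp, 1 line per mouse, for ends next to a measured window above 10% (left) and next to windows without data (right). All 8 mice stay near 3% in the last step inside and rise to averages of 49.6% (left) and 45.4% (right) outside.

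The question of the study, whether loss of Atg12 changes methylation, could be put to the canyons because the rule averaged over both genotypes. Applied to the controls alone it gave 462 canyons, and applied to the knockouts alone 458. Averaged over the 2204 canyon windows with data in every mouse, the level was 1.87, 1.88, 1.79 and 2.08% in knockouts 25, 28, 45 and 46, and 1.94, 1.66, 1.87 and 2.00% in controls 1, 34, 36 and 37. The groups overlapped, with control 34 the lowest mouse and knockout 46 the highest. The means were 1.90 ± 0.121% and 1.87 ± 0.149% (SD, 4 mice each). The difference of 0.0379 points (95% interval -0.207 to 0.419) was within the spread between mice (exact two-sided permutation test, p = 0.686, adjusted p = 0.914 over 4 tests).

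Edges did not differ beyond the spread either. Over the 117 edge windows with data in every mouse the level was 43.5, 45.1, 46.2 and 47.3% in knockouts 25, 28, 45 and 46, and 46.5, 42.5, 46.2 and 46.4% in controls 1, 34, 36 and 37. Control 34, the library with the lowest relative edge coverage, was again the lowest. The means were 45.5 ± 1.63% and 45.4 ± 1.94%, a difference of 0.105 points (95% interval -3.04 to 4.79, exact permutation p = 1). At the open ends, 214 of which had sparse CpGs in every mouse, the means were 29.7 ± 0.833% and 31.0 ± 2.43%, a difference of -1.28 points (95% interval -4.48 to 2.98, exact permutation p = 0.371).

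Canyon width was compared through the windows that crossed the limit in single mice. Above 10% were 1.57 ± 0.705% of canyon windows in knockouts and 1.26 ± 0.584% in controls (exact permutation p = 0.514). Edge windows at or below 10%, which would lengthen a canyon in that mouse, made up 10.7 ± 0.493% in knockouts and 9.62 ± 4.60% in controls (exact permutation p = 0.657). This comparison depended on single mice. Control 34, at 15.4%, was the highest mouse. Without it the knockouts were 4.39 points higher over 112 edge windows (exact permutation p = 0.0286, the smallest these group sizes allow, not adjusted). Without knockout 25, 28 or 46 or control 1 the knockouts were lower. The edge windows used changed as well each time. Leaving out control 34 together with knockout 25, the libraries with the lowest relative edge coverage, gave a difference of 1.43 points (exact permutation p = 0.7).

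**Figure D5:**
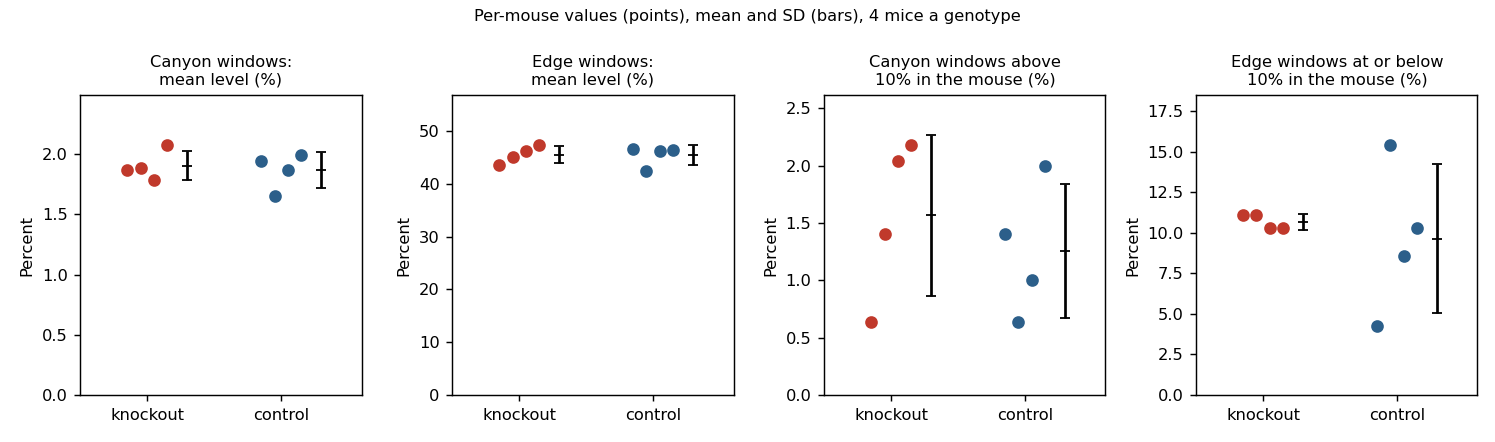
Values of the 8 mice (points) with mean and SD (bars) by genotype, each panel in percent: mean level of canyon windows, mean level of edge windows, canyon windows above 10% in that mouse, and edge windows at or below 10% in that mouse. The genotypes overlap in every panel, and control 34, at 15.4%, is the highest in the last.

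No single canyon, canyon window or edge window passed a Benjamini-Hochberg adjusted p of 0.05 in the moderated quasi-binomial model. The background was the same: 0 of 57771 windows tested in the genome (percent called 0) and 1 of 14738 runs (0.00679%), a shorter one. At an unadjusted p under 0.05 the model had 118 of 2168 canyon windows (5.44%, against 6.25% of all windows) and 8 of 119 edge windows (6.72%). Among whole canyons 35 of 460 (7.61%) reached it, against 5.46% of all runs. Of these, 29 (6.30%) were higher in knockouts, where the background was 2.8%, and 6 were lower, where it was 2.67%. The excess of higher canyons depended on the kind of test. It was also present in the quasi-binomial model without moderation (22 canyons, 4.78%, against 2.42% of all runs) and without the minimum of methylated reads (28, 6.09%, against 2.87%). The quasi-likelihood test of edgeR had 7 higher canyons (1.52%, against 1.5%) and 4 lower ones (0.870%, against 2.52%). With limma on log2 ratios there were 3 higher (0.652%, against 1.68%) and 3 lower (0.652%, against 3.07%). None of these tests called a canyon after adjustment.

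By mean level alone, 265 canyons (57.6%) were higher in knockouts and 195 lower, against 50.7% higher among shorter runs. The median difference was 0.0307 points, and 452 canyons (98.3%) differed by less than 1 point. The groups did not overlap, in either direction, in 14 canyons (3.04%, against 2.72% of all runs). That share was near the background.

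The canyon with the lowest p was that of Bsx, a homeobox gene of the hypothalamus and pineal gland (chr9:40871001-40879000). It stood at 4.07, 3.63, 4.17 and 3.62% in knockouts 25, 28, 45 and 46, and at 2.80, 2.44, 2.50 and 2.50% in controls 1, 34, 36 and 37. All knockouts lay above all controls, by a mean of 1.32 points (3.88 ± 0.287% and 2.56 ± 0.166%), with an adjusted p of 0.152 in the quasi-binomial model. The gap was uneven along the canyon. The window that starts 2 kb after the one with the gene's start, with 29 CpGs, had the widest gap in points, at 7.61 ± 1.38% in knockouts and 4.75 ± 1.03% in controls. The first measured window was at 4.07 ± 1.65% and 4.14 ± 1.72%.

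Other canyons with low p and higher knockout means were those of Msx1, Trp73 with Wrap73, Mecom and Sox2, with adjusted p from 0.833 to 0.865 in the same model. Msx1, a homeobox gene of tooth and face development (chr5:37823001-37830000), was at 2.18 ± 0.434% and 1.37 ± 0.210% in knockouts and controls. Its mean level of 1.78% became 1.12, 1.14 and 1.004% when the rule was run again without knockouts 25, 28 and 46. The difference of 0.801 points became 0.525, 0.567 and 0.286. The CpGs used changed in these alternatives as well, and the overlapping run of low windows could be of any length. Mecom was at 0.287, 0.277, 0.331 and 0.211% in knockouts 25, 28, 45 and 46, and at 0.0728, 0.129, 0.109 and 0.0440% in controls 1, 34, 36 and 37. The groups did not overlap, and each mouse had 24694 to 36202 reads over this canyon. Sox2 (chr3:34648001-34652000), a pluripotency and neural factor, was at 2.66 ± 0.368% and 1.96 ± 0.265%.

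Lower knockout means with low p were found at Ssbp4, Comp, a canyon near Emx2 and Wrap53 with Trp53, with adjusted p from 0.865 to 0.892 in the quasi-binomial model. The canyon near Emx2, a homeobox gene of the cortex and urogenital tract, lay 1644 bp outside the gene (chr19:59467001-59472000). It was at 1.47 ± 0.841% in knockouts and 2.63 ± 0.376% in controls, and the groups overlapped. The start of Emx2 lay in another canyon (chr19:59455001-59462000). Comp, the cartilage oligomeric matrix protein gene (chr8:70373001-70377000), was at 3.34 ± 0.353% and 3.90 ± 0.271%. Wrap53 with the tumour suppressor gene Trp53 (chr11:69578001-69582000), was at 0.190 ± 0.142% and 0.418 ± 0.115%.

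Of the edges, that of Pim1, a kinase gene of cytokine signalling (chr17:29494001-29495000), had 9 CpGs. Its level was 6.59, 7.76, 0.669 and 7.75% in knockouts 25, 28, 45 and 46, and 19.2, 12.9, 16.0 and 17.1% in controls 1, 34, 36 and 37. All knockouts lay below all controls and below the limit, so the canyon would be wider there in each knockout, but the adjusted p of the quasi-binomial model was 0.622. The edge of Gfi1 (chr5:107721001-107722000), with 48 CpGs, went the other way. It was at 15.1, 16.3, 25.1 and 23.4% in knockouts and at 14.4, 8.64, 11.6 and 12.8% in controls, with an adjusted p of 0.617 in that model. Igf2, an imprinted growth factor gene, had an edge (chr7:142665001-142666000) of 6 CpGs at 45.3 ± 7.0% in knockouts and 65.4 ± 12.1% in controls. Hes7 (chr11:69119001-69120000), a Notch target of the segmentation clock, was at 22.7 ± 0.794% and 14.5 ± 2.98%. Mex3b and Tfap2a had higher knockout means as well (70.4 and 63.2%, and 27.0 and 19.2%), and Irx4 and Ptma lower ones (7.14 and 14.3%, and 14.2 and 17.8%). All 8 of these edges had an adjusted p of 0.617 or more in the quasi-binomial model.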

How the data were processed

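Each of the 8 libraries came from 1 mouse, and the deposited tables list CpG cytosines per strand. The authors deposited coverage as the count of reads per cytosine, at least 10 in every table, and their methylation value is the percent of reads with C or T, per the file headers. CASAVA 1.8.2, Bismark and build mm10 were used, per the submitters' processing notes. Of trimming, filters and duplicate removal, the sources used here say nothing. Reads carry no molecular identifiers, so counts overstate independent molecules, and intervals and limits cover counting error only, not errors of bisulfite conversion.

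Methylated reads were coverage times percent, and the strands of each CpG were summed. CpGs were kept with 10 or more reads in at least 3 mice of each group. A window's level in a mouse was its methylated over all reads; a canyon's level summed reads over its windows. Of 5202765 autosomal CpGs listed for any mouse, 1278034 were kept. All of 186071 measured CpGs in RefSeq promoters (GRCm38.p6) fell on CG.

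Genotype was tested with a quasi-binomial model per window and per run, on features with at least 10 methylated reads. Dispersion was moderated by squeezeVar of limma 3.58.1 (R 4.3.3) and was not below 1. Benjamini-Hochberg adjustment was over all windows or all runs. The model was also tested on simulated windows. The simulated shifts exceeded 1.88 points, the widest canyon difference, so differences as small as those of canyons were not simulated. Means over windows were compared by exact two-sided permutation over 70 arrangements (smallest p 0.0286), with 95% intervals by inversion and adjustment over 4 tests. edgeR 4.0.16 and limma on log2 ratios were alternatives. Permutation p-values place the group difference among the 70 arrangements of these mice. Those of the quasi-binomial model set it against a dispersion moderated over all windows or runs.

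Canyons were named by overlapping or nearest protein-coding genes. Those named had the most windows (10), the lowest p (6 per direction), the largest SD (6), the highest or lowest levels (6 each), or overlapped stem cell or epigenetic regulators. Edges named had the lowest p (4 per direction), the largest or smallest rise (4 each) or lay nearest the limit (4). The canyon over Iqce and Brat1, that over Irx3, and list members were named by their counts. A few canyons that the rule names are not reported here. The canyons, the gene lists and the tests were chosen with earlier results of these data known.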

Additional observations from a re-analysis of the deposited data

Results flagged for a closer look

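In 9 of 150 groups of 4 mice examined, the highest or lowest mouse lay far from the other 3 by Dixon's criterion, which chance alone meets in about 1 in 20 groups. Control 34 was such a mouse in 4 of them. It had the lowest edge level of the controls (42.5%, the next 46.2%), the lowest level in the canyons of Lhx5 (2.80%, the next 3.32%) and Hoxc10 (4.88%, the next 6.57%), and the highest in that of Mbd6 with Ddit3 (0.194%, the next 0.0494%). Control 1 was the highest control in the Bsx canyon (2.80%, the next 2.50%), on the side of the knockouts. Among the knockouts, mouse 45 was the highest in the Dmrta2 canyon (2.61%, the next 2.52%) and the lowest at the Pim1 edge (0.669%, the next 6.59%). Knockout 25 was the lowest in the Skor2 canyon (5.96%, the next 6.99%), and knockout 28 the highest in that of Kdm6b (0.459%, the next 0.150%).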

How the results depend on the processing

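The number of canyons depended on the rule: requiring 10 or more CpGs a window gave 271, runs of 6 or more windows gave 88, and leaving out 1 mouse gave 428 to 456. No canyon, canyon window or edge window was called under any of the 25 alternatives of settings and models that were run; unadjusted p under 0.05 was reached by 6 to 53 canyons, 43 to 168 canyon windows and 1 to 18 edge windows. The genotype difference in canyon level changed sign when the rule was applied to the knockouts alone (-0.0052 points) and without both libraries of lowest edge coverage (-0.0285 points), an alternative added after seeing the data, and it ranged from -0.0377 to 0.0691 points when 1 mouse was left out, below 0 without knockout 46 (-0.0091) or control 34. The edge level difference was -0.780 points with 3 or more CpGs a window, -0.136 with a limit of 5%, -0.622 for runs of 6 or more windows, -0.117 with levels as means over CpGs and -0.304 with the rule applied to the controls alone. Leaving out 1 mouse gave -0.839 to 1.23 points, below 0 without knockout 46 (-0.337) or control 34. For canyon windows above the limit the difference was -0.114 points with the rule applied to the knockouts alone and 0.0228 to 0.508 with 1 mouse left out. For edge windows at or below the limit it was -0.301 points for CpGs covered in all 8 mice, -1.63 with no bridged windows, -0.971 with windows shifted by 500 bp, -2.50 for runs of 6 or more windows and -2.39 with the rule applied to the knockouts alone. With 1 mouse left out it ranged from -1.24 to 4.39, below 0 without knockouts 25 (-0.996), 28 or 46 (-0.614) or control 1 (-0.608) and highest without control 34. Apart from that last value, exact permutation p-values were 0.143 or more in all alternatives of these 4 measures. Of 474 alternatives for the 20 named differences, only Comp with a limit of 5% changed sign (0.613 points), and the levels of the 56 named canyons stayed within 1 SD over mice in 1090 of 1176 alternatives; those of Phox2a with Inppl1, Jarid2, Ier2 and Msx1 changed by over 1.5 times when 1 mouse was left out. In each alternative a named canyon was represented by the run of low windows that overlapped it most. That run could be of any length and need not have been a canyon. Leaving out 1 mouse also changed the CpGs and windows used, because a CpG then needed data in all 3 remaining mice of its group. These changes are therefore not those of the mouse alone. The cause of each change was not tested. No paired analysis was possible because the mouse numbers of the groups do not overlap. Precision is limited by 4 mice a group and by the 800 ends without a measured edge.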
